A study of Homo sapiens with 5 samples.

Results

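The constitutive proteasome subunits described here were the genes named PSMA, PSMB, PSMC, PSMD or PSME with a number, without the immunoproteasome subunits PSMB8, PSMB9 and PSMB10. A mean of at least 10 counts over the 5 libraries was required. Of 26364 genes listed, 38 met the rule: 7 PSMA, 7 PSMB, 6 PSMC, 14 PSMD and 4 PSME genes. Of the 40 symbols that matched, PSMA8 and PSMB11 had no count in any library and were left out. The members nearest to the limit were PSMD6, PSMD9 and PSMD10, at means of 25.4, 26 and 28.8 counts. All 38 were among the 10005 genes tested.

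The libraries came from tumours of HT-29, an established human colon cancer line, grown under the skin of the back in female NOD SCID mice. These mice lack T and B cells, so the tumours grew in hosts without those lymphocytes. The mice were 5 weeks old when bought. The labels give 4 foods, fed for 2 weeks according to the design text, which also speaks of a planned period of 3 weeks. Normal food has 1 library and methionine-free food has 2. Tryptophan/niacin-free food has 1, and so has food that lacks all of these nutrients, called the combined omission below. Whether the methionine-free pair came from separate mice is not stated. The p-values then measure the spread of these samples alone, and it may be technical. Outside the additive model, the edgeR tests shared this spread across genes. The SE and p-value of a gene there do not show how closely its own replicates agree.

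The proteasome degrades proteins tagged with ubiquitin. Its barrel-shaped core has outer rings of alpha subunits (PSMA), which gate the entrance, and inner rings of beta subunits (PSMB), of which PSMB5, PSMB6 and PSMB7 carry the catalytic sites. A regulatory particle on the end of the barrel has a base, with a ring of ATPases (PSMC) that unfold the substrate, and a lid of PSMD subunits that removes ubiquitin. The PSME genes encode other caps: PSME1 and PSME2 form the interferon-inducible PA28 activator, PSME3 the nuclear PA28 gamma and PSME4 PA200.

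Library totals ran from 433930 to 1088084 counts, so 1 count was worth 0.919 to 2.3 CPM (the count scaled to a common library total). All CPM below were scaled by the trimmed mean of M-values (TMM). The 9 markers of colon cancer epithelium summed to between 12591 and 15792 CPM. Of the 6 fibroblast, 4 endothelial and 7 leukocyte markers, 4, 3 and 4 were at 0 in every library, PTPRC and CD3E among them. The 7 leukocyte markers summed to 2019 to 3707 CPM, highest in replicate 2 of the methionine-free pair, and the 3 erythroid markers were all at 0. The 5 skeletal muscle markers summed to 65.9 CPM in the tryptophan/niacin-free library and to at most 1.79 CPM in the others. The part of these levels in the results was not tested.

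The proteasome transcripts made up a larger share of the counts in the methionine-free libraries than in the library of normal food. The 38 genes took 0.425% of the counts in the normal library, 0.504% and 0.642% in methionine-free replicates 1 and 2, 0.519% in the tryptophan/niacin-free library and 0.434% in the combined omission. Both methionine-free libraries were thus above normal food and the combined omission, but replicate 1 was below the tryptophan/niacin-free library. In bulk tumours, fewer cells of a type and less RNA per cell cannot be told apart.

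Gene by gene, the median difference from normal food on the log2 CPM scale was 0.28 in methionine-free replicate 1, 0.75 in replicate 2, 0.22 in the tryptophan/niacin-free library and 0.04 in the combined omission. The numbers of the 38 members above normal were 33, 36, 32 and 21. The highest of the 5 values belonged to methionine-free replicate 2 in 29 members and to the tryptophan/niacin-free library in 7. The lowest belonged to normal food in 15 and to the combined omission in 15.

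**Figure D1:**
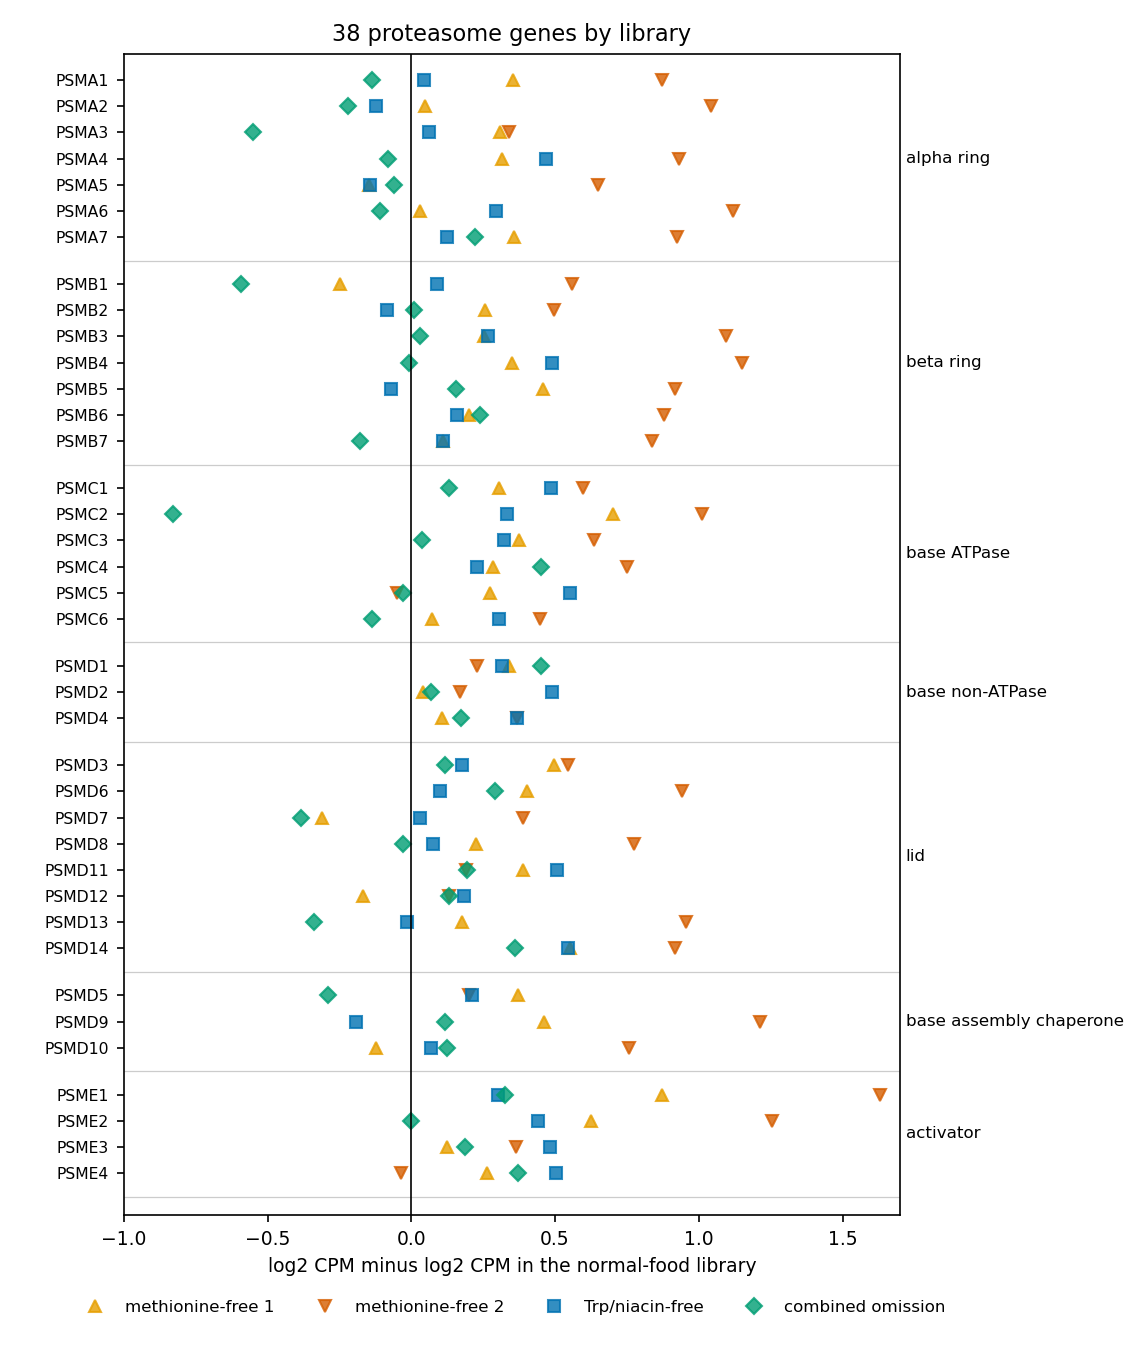
The log2 CPM difference from the normal library (horizontal axis) of each of the 38 genes (rows, ordered by role) in the other 4 libraries (coloured symbols, Trp standing for tryptophan). Methionine-free replicate 2 lies farthest to the right for most genes, with PSME1 at the right end, and PSMC2 in the combined omission lies farthest to the left.

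The first comparison set methionine-free food against normal food. None of the 38 members passed an adjusted p of 0.05 in edgeR's quasi-likelihood test with Benjamini-Hochberg adjustment, in which 0.230% of all genes tested were called. Every gene called was lower. limma-voom and DESeq2 also called 0 members. At an unadjusted p under 0.05, 4 members were higher by edgeR (PSME1, PSME2, PSMC2 and PSMD9) and none lower, against 2.47% of all genes tested that were higher. The corresponding counts, in either direction, were 4 by limma-voom and 1 by DESeq2. The fold change lay above 0 for 37 of 38 members, against 50.3% of all genes, and its median was 0.53 on the log2 scale, against 0.00 for all genes. Without replicate 2 the median was 0.29.

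Both methionine-free libraries exceeded normal food in 31 of 38 members, against 34.7% of all genes. Both exceeded every other library in 16 of 38, against 16.9%. As measured, no member was below normal food in both.

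The alpha ring had a median fold change of 0.65 on the log2 scale, with all 7 genes above 0, the smallest being 0.32. The median was 0.35 with the trend of each library on transcript length removed. PSMA6 stood at 73.6 CPM on normal food, 75.3 and 163 CPM in methionine-free replicates 1 and 2, 91 CPM without tryptophan and niacin and 68.1 CPM in the combined omission. Only replicate 2 stood clear of the rest. For PSMA6 the fold change was 0.70 (SE 0.416, adjusted p = 0.75 by edgeR), and it was 0.03 without replicate 2 and 1.15 without replicate 1. PSMA4 stood at 142 CPM on normal food, 177 and 273 CPM in the pair, 198 CPM without tryptophan and niacin and 134 CPM in the combined omission. The tryptophan/niacin-free library lay between the methionine-free replicates. PSMA4 had a fold change of 0.67 (SE 0.436, adjusted p = 0.776) and 0.32 without replicate 2.

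PSMA7 stood at 253 CPM on normal food, 324 and 482 CPM in the pair, 276 CPM without tryptophan and niacin and 295 CPM in the combined omission, so that the pair did not overlap the other libraries. PSMA2 stood at 130 CPM on normal food, 134 and 271 CPM in the pair, 119 CPM and 111 CPM in the remaining libraries. Its replicate 1 was next to normal food, and its replicate 2 stood clear.

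The beta ring had a median of 0.61, with all 7 genes above 0. It was 0.24, with 6 of 7 above 0, with the length trend removed. PSMB4, a structural subunit, stood at 112 CPM on normal food, 143 and 252 CPM in methionine-free replicates 1 and 2, 158 CPM without tryptophan and niacin and 111 CPM in the combined omission. The tryptophan/niacin-free library lay between the replicates, and the combined omission was level with normal food. Against normal food, PSMB4 had a fold change of 0.83 (SE 0.433, adjusted p = 0.676), and 0.36 without replicate 2. PSMB5, which carries the chymotrypsin-like site, stood at 70.9 CPM on normal food, 98.6 and 136 CPM in the pair, 67.4 CPM without tryptophan and niacin and 79.4 CPM in the combined omission. The pair did not overlap the other 3 libraries, and the fold change was 0.73 (SE 0.415, adjusted p = 0.731), and 0.47 without replicate 2. The catalytic subunit PSMB6 stood at 57.3 CPM on normal food, 66.3 and 108 CPM in the pair, 64.3 CPM without tryptophan and niacin and 68.1 CPM in the combined omission. PSMB7 stood at 92.7 CPM on normal food, 100.4 and 168 CPM in the pair, 100.4 CPM without tryptophan and niacin and 81.7 CPM in the combined omission. For PSMB6 the combined omission was above replicate 1, and for PSMB7 the tryptophan/niacin-free library was level with it.

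PSMB3 stood at 166 CPM on normal food, 199 and 358 CPM in the pair, 201 CPM without tryptophan and niacin and 170.2 CPM in the combined omission. PSMB2 stood at 146 CPM on normal food, 176 and 208 CPM in the pair, 138 CPM and 147 CPM in the remaining libraries. Replicate 1 was below the tryptophan/niacin-free library for PSMB3 and above it for PSMB2.

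The 6 ATPases had a median of 0.50, all above 0, and 0.29 with the length trend removed, when 5 were above 0. PSMC2 (RPT1) stood at 99.1 CPM on normal food, 163 and 203 CPM in the methionine-free pair, 125 CPM without tryptophan and niacin and 54.5 CPM in the combined omission. The pair lay above, and the combined omission below, every other library. The fold change of PSMC2 against normal food was 0.89 (SE 0.426, adjusted p = 0.628), and 0.72 without replicate 2. PSMC4 (RPT3) stood at 105 CPM on normal food, 129 and 179 CPM in the pair, 124 CPM without tryptophan and niacin and 145 CPM in the combined omission, with a fold change of 0.55 (SE 0.425, adjusted p = 0.83), and 0.29 without replicate 2. The combined omission lay between the replicates. PSMC5 was the ATPase whose replicates fell on opposite sides of normal food, at 124 and 98.3 CPM against 102 CPM.

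The 14 PSMD genes had a median of 0.36, with 13 above 0. Their 8 lid subunits had a median of 0.53, the 3 non-ATPase subunits of the base (PSMD1, PSMD2 and PSMD4) 0.25, and the 3 chaperones of base assembly (PSMD5, PSMD9 and PSMD10) 0.42. PSMD9 stood at 29.1 CPM on normal food, 41.2 and 71.4 CPM in the pair, 25.1 CPM without tryptophan and niacin and 31.8 CPM in the combined omission. The pair did not overlap the other libraries, but these values rest on 14 to 45 counts. PSMD9 had a fold change of 0.96 (SE 0.462, adjusted p = 0.629), and 0.50 without replicate 2. PSMD14 (RPN11), the deubiquitinase of the lid, stood at 70 CPM on normal food, 104 and 135 CPM in the pair, 104 CPM without tryptophan and niacin and 90.8 CPM in the combined omission. Normal food was lowest, and the fold change was 0.77 (SE 0.422, adjusted p = 0.711).

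PSMD2 (RPN1), a scaffold of the base, stood at 223 CPM on normal food, 229 and 251 CPM in the pair, 314 CPM without tryptophan and niacin and 234 CPM in the combined omission. Here the tryptophan/niacin-free library was highest. PSMD8 stood at 204 CPM on normal food, 238 and 351 CPM in the pair, 215 CPM and 199.7 CPM in the remaining libraries. PSMD12 was the member below 0, at a fold change of -0.01.

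Among the 4 activators the median was 0.64, all above 0. PSME1 stood at 68.2 CPM on normal food, 127 and 217 CPM in methionine-free replicates 1 and 2, 84.7 CPM without tryptophan and niacin and 86.2 CPM in the combined omission. The pair lay above the other 3 libraries. In single libraries the 95% exact Poisson intervals, which cover counting error only, ran from 53.6 to 85.5 CPM on normal food and from 99.4 to 160.5 CPM in replicate 1. The fold change of PSME1 was 1.34 (SE 0.435, adjusted p = 0.261), the largest among the 38 members, and 0.90 without replicate 2.

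PSME2 stood at 45.5 CPM on normal food, 71.7 and 113 CPM in the pair, 62.7 CPM without tryptophan and niacin and 45.4 CPM in the combined omission. The pair was again above the rest, and the combined omission was level with normal food. PSME2 had a fold change of 1.02 (SE 0.431, adjusted p = 0.546), and 0.66 without replicate 2. The other caps did not follow this order. PSME3 stood at 161 CPM on normal food, 176 and 208 CPM in the pair, 226 CPM without tryptophan and niacin and 184 CPM in the combined omission. PSME4 stood at 101 CPM on normal food, 122 and 98.3 CPM in the pair, 144 CPM and 132 CPM in the remaining libraries. The tryptophan/niacin-free library was highest for both.

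**Figure D2:**
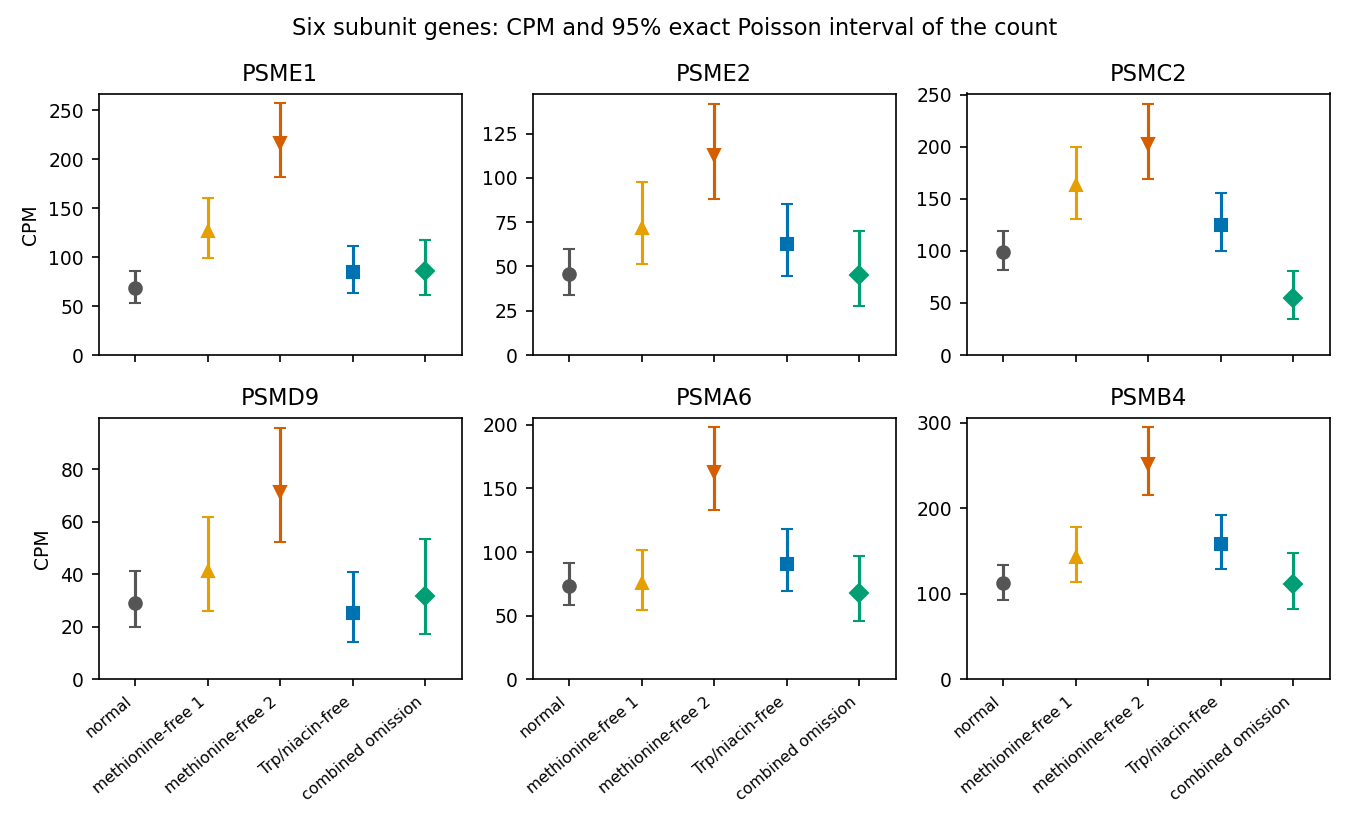
TMM-scaled CPM (vertical axis, from 0) of PSME1, PSME2, PSMC2, PSMD9, PSMA6 and PSMB4 in each of the 5 libraries, with 95% exact Poisson intervals that cover counting error only. Both methionine-free libraries are above the others for PSME1, PSME2, PSMC2 and PSMD9, whereas replicate 1 of PSMA6 is near normal food.

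The promoters of PSME1, PSME2 and PSMC2 are shown because these genes were among the lowest unadjusted p-values in more than one comparison. They are RefSeq sequences on GRCh38.p14, the 250 bases before the start of transcription, 5′ to 3′ on the strand of the gene. Capitals mark TGACNNNGC, the core of the antioxidant response element bound by the NFE2L1 and NFE2L2 transcription factors, in PSME1 and PSME2. In PSMC2 they mark CCAAT, the CCAAT box bound by NF-Y. The windows are chr14:24135944-24136193 on the plus strand, chr14:24146611-24146860 on the minus strand and chr7:103347393-103347642 on the plus strand.
PSME1: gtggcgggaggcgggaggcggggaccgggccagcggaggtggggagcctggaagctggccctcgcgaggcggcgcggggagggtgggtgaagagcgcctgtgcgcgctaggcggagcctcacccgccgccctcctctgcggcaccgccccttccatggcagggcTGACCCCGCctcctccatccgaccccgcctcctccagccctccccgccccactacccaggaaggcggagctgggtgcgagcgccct
PSME2: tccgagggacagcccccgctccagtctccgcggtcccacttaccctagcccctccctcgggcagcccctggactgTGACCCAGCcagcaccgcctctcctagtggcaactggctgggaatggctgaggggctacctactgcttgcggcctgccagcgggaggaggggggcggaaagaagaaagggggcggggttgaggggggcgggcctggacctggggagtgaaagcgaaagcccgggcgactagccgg
PSMC2: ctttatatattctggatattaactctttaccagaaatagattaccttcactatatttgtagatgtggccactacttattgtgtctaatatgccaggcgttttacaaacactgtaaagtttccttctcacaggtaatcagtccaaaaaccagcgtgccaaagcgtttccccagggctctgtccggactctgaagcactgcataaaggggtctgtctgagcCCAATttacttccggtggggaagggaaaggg

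Counted from the start, the PSME1 match began at position -86, the PSME2 match at -175 and the PSMC2 match at -31. In the promoter table, 33 of the 38 members had an entry, with 39 windows of 300 bases (250 before the start and 50 after it). On both strands, TGACNNNGC occurred in 30.8% of the member windows and in 13.3% of the 35116 windows of all genes. CCAAT occurred in 43.6% and 34.6%. The motifs were counted separately, and their matches may overlap. The 12 members with TGACNNNGC were PSMA4, PSMB3, PSMC4, PSMC5, PSMD1, PSMD3, PSMD5, PSMD9, PSMD12, PSME1, PSME2 and PSME4. PSME1, PSME2 and PSMD9 thus shared this core with PSMC5, PSMD12 and PSME4, whose fold changes on methionine-free food were 0.12, -0.01 and 0.12. A match describes the letters only.

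The methionine-free replicates differed from each other in these genes. Replicate 2 was above replicate 1 in 33 of 38 members, against 50.4% of all genes, with a median log2 difference of 0.49. Lone libraries were compared by size: a 2-fold difference with a 95% exact binomial interval of the count ratio that excluded 1, with no test. By this rule PSMA6 was higher in replicate 2, with a ratio of 2.17 (1.5 to 3.19), 1 of 38 members, against 6.60% of all genes. All 14 core genes were higher in replicate 2, but PSMC5, PSMD1, PSMD5, PSMD11 and PSME4 were lower.

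This difference moved with transcript length. The principal transcripts of the members had a median of 1579.5 bases, against 3136 for all genes, and 24 of 38 fell in the lowest quartile of length. In that quartile the median difference of replicate 2 from replicate 1 was 0.34 over all genes and 0.60 over the 24 members. In the highest quartile all genes had -0.35, and its member, PSME4, had -0.30. Over the 38 members, Pearson's r of the difference with log2 length was -0.51 and Spearman's rho -0.47. Over 9875 genes they were -0.41 and -0.44. These genes share both libraries and are not independent replicates. The 81 cytosolic ribosomal protein genes, also short, had medians against normal food of 0.24 in replicate 1 and 0.83 in replicate 2.

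With the length trend of each library removed, the member medians against normal food were 0.18 in replicate 1 and 0.38 in replicate 2, and the fitted median was 0.34 with 32 of 38 above 0. The fold change of PSME1 became 0.92 and that of PSME2 0.72. That of PSMC2 became 0.84. Both methionine-free libraries were then above normal food in 26 members and above every library in 11. 3 members were below normal food in both. By role, replicate 1 had corrected medians of 0.13 for alpha, 0.05 for beta, 0.23 for ATPase, 0.21 for PSMD and 0.44 for activator genes. Replicate 2 had 0.52, 0.38, 0.32, 0.35 and 0.62 in the same order. By median, the alpha and beta genes of replicate 1 were thus nearly level with normal food. Above it in both replicates were 3 of 7 alpha and 5 of 7 beta genes. An unplanned alternative took the median length of a gene's coding transcripts. With it, the fitted member median against normal food was 0.42, with 36 of 38 above 0. The part of length or of RNA quality in the uncorrected values was not tested further.

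**Figure D3:**
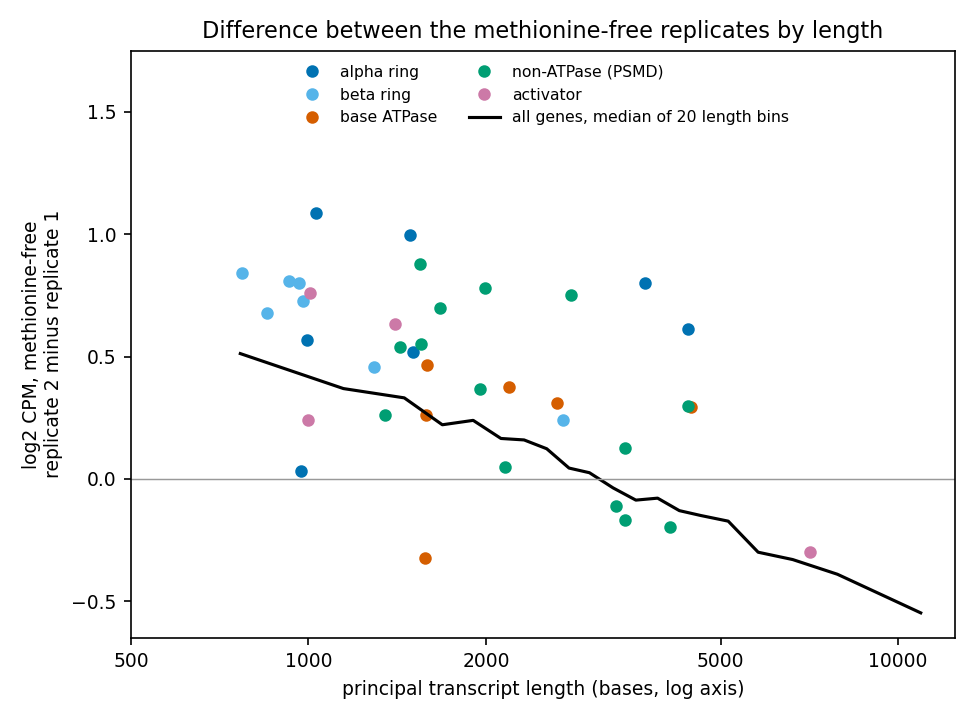
The log2 CPM difference of methionine-free replicate 2 from replicate 1 (vertical axis) against principal transcript length in bases (log axis) for the 38 genes, coloured by role. The line is the median of all genes in 20 length bins and falls with length, and most member points lie above it.

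The second comparison set the combined omission against methionine-free food, which adds the loss of tryptophan and niacin. None of the 38 members passed the adjusted threshold, and 0.0300% of all genes did, all of them higher. limma-voom and DESeq2 again called 0 members. PSMC2, PSMD13, PSME1 and PSME2 were lower at an unadjusted p under 0.05, 4 of 38 against 2.94% of all genes, and limma-voom had 4 and DESeq2 1 at that level. The fold change lay below 0 in 35 of 38 members, against 51.2% of all genes. The median was -0.47, with -0.23 when replicate 2 was left out, -0.70 when replicate 1 was left out, and -0.28 with the length trend removed. It was -0.36 with the median coding transcript length. The groups' medians were -0.79 for alpha, -0.71 for beta, -0.39 for ATPase, -0.40 for PSMD and -0.53 for activator genes.

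PSMC2 had the largest difference, -1.75 on the log2 scale (SE 0.499, adjusted p = 0.192), and -1.58 without replicate 2. Its 54.5 CPM in the combined omission rest on 24 counts, with a 95% exact Poisson interval of 34.9 to 81 CPM. That interval does not reach the 81.4 CPM at which the interval of normal food begins. PSMD13, a lid subunit, stood at 173 CPM on normal food, 195 and 338 CPM in the pair, 171 CPM without tryptophan and niacin and 136 CPM in the combined omission. Its difference was -0.97 (SE 0.469, adjusted p = 0.643), and -0.52 without replicate 2. PSME1 and PSME2 had -1.0 (SE 0.458, adjusted p = 0.622) and -1.03 (SE 0.489, adjusted p = 0.643). They had -0.56 and -0.65 without replicate 2.

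In the core, PSMA3 stood at 64.5 CPM on normal food, 80.6 and 82.5 CPM in the pair, 67.4 CPM without tryptophan and niacin and 43.1 CPM in the combined omission. Its methionine-free replicates lay close together, and its difference of -0.92 (SE 0.497, adjusted p = 0.686) was -0.90 without replicate 2. PSMB1 stood at 128 CPM on normal food, 108 and 190.3 CPM in the pair, 136 CPM without tryptophan and niacin and 84 CPM in the combined omission. Its difference was -0.83 (SE 0.468, adjusted p = 0.692), but -0.35 without replicate 2. PSMC3 (RPT5) stood at 124 CPM on normal food, 161 and 194 CPM in the pair, 155 CPM without tryptophan and niacin and 127 CPM in the combined omission, and differed by -0.48 (SE 0.452, adjusted p = 0.832). For PSMA3 and PSMB1 the combined omission was the lowest library, and for PSMC3 it was next to normal food.

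The libraries carry 2 styles of title. Those of normal food and the combined omission are short, and the other 3 begin with a number. The labels do not say what the styles mean, and handling cannot be told apart from diet in comparisons that cross them. These include methionine-free and tryptophan/niacin-free food against normal food. They also include the combined omission against methionine-free and against tryptophan/niacin-free food. Within the short style, the combined omission differed from normal food by a member median of 0.04, with 21 of 38 above 0. None of the members lay beyond the size rule, against 2.02% of all genes. The extremes were PSMC2 at -0.83, a ratio of 0.55 (0.338 to 0.861), and PSMC4 and PSMD1 at 0.45. The group medians were -0.11 for alpha, 0.01 for beta, 0.01 for ATPase, 0.12 for PSMD and 0.26 for activator genes.

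Within the numbered style, tryptophan/niacin-free food could be set against the methionine-free pair. Neither the members nor any other gene passed the adjusted threshold (0% called). PSMD9 and PSME1 were lower at an unadjusted p under 0.05, 2 of 38 against 2.32% of all genes, and by limma-voom and DESeq2 the counts at that level were 2 and 0. PSMD9 differed by -1.17 (SE 0.518) and PSME1 by -1.03 (SE 0.442), each with an adjusted p of 0.992. They were -0.71 and -0.59 without replicate 2. The member median was -0.34 with 28 below 0, but -0.02 without replicate 2 and -0.05 with the length trend removed. All 14 alpha and beta genes were below 0, as were 3 of 6 ATPases, 9 of 14 PSMD genes and 2 of 4 activators. With the length trend removed, 2 alpha and 5 beta genes lay above 0. With the median coding transcript length, the member median was -0.20, with 12 of 38 above 0.

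The tryptophan/niacin-free library was above normal food in 32 of 38 members, against 49.6% of all genes, with a median of 0.22 and a range of -0.19 to 0.55. None lay beyond the size rule, against 3.52% of all genes. The median was 0.06 for the alpha and 0.11 for the beta genes. It was 0.33 for the ATPases, of which all 6 were above normal, and 0.46 for the activators. The base scaffolds and ubiquitin receptor PSMD1, PSMD2 and PSMD4 had 0.37. PSMC5 and PSMD14 had the largest value, 0.55. In contrast to the methionine-free pair, removal of the length trend left the median at 0.23.

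**Figure D4:**
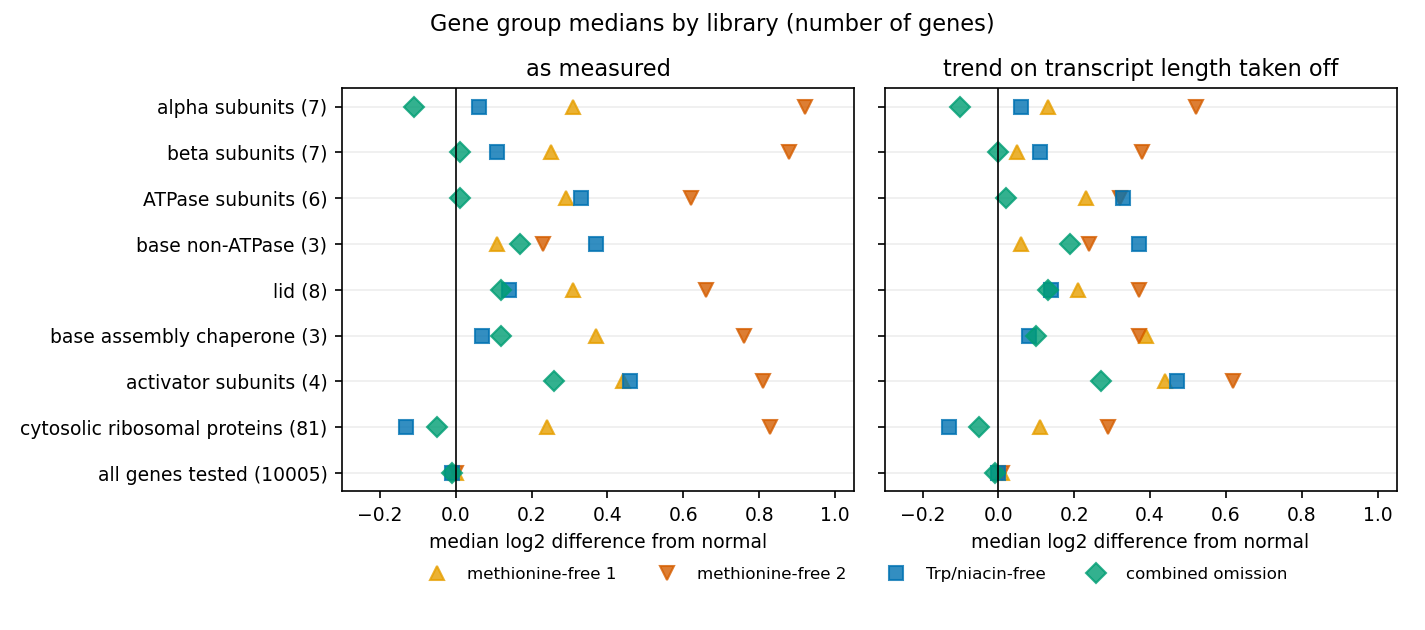
Median log2 CPM difference from the normal library (horizontal axis) of each proteasome group, the ribosomal protein genes and all genes tested (rows) in the other 4 libraries (symbols), as measured (left) and with the length trend removed (right). As measured, methionine-free replicate 2 is highest in every proteasome group except the non-ATPase subunits of the base, and the combined omission is near 0 in the beta ring and the ATPases.

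The combined omission was also set against the tryptophan/niacin-free library, which differs from it by methionine and by title style. Below 0 were 27 of 38 members, against 50.1% of all genes, with a median of -0.21. PSMC2 alone lay beyond the size rule, 1 of 38 against 4.04% of all genes, at a ratio of 0.434 (0.263 to 0.692). The ATPases had a median of -0.40, the alpha genes -0.18, the beta genes -0.23, the PSMD genes -0.14 and the activators -0.13 for PSME4, -0.29 for PSME3, -0.44 for PSME2 and 0.02 for PSME1.

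The effect of methionine omission could be read with and without tryptophan and niacin in the food, but each reading crosses the title styles. Their difference sets the short-titled libraries against the numbered ones. For it, handling and diet cannot be told apart. With tryptophan and niacin, the member median was 0.53 and 37 of 38 were above 0. Without them it was -0.22 and 11 were above 0. The difference between these effects, the interaction, passed the adjusted threshold in none of the 38 members, against 0.430% of all genes. Of the genes that edgeR called, 42 were above 0 and 1 below. Of the members, limma-voom and DESeq2 also called 0. PSMC2, PSMB4 and PSME2 were lower at an unadjusted p under 0.05, 3 of 38 against 1.95% of all genes, with 3 by limma-voom and 1 by DESeq2.

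The interaction lay below 0 in all 38 members, against 51.0% of all genes, with a median of -0.68 and a range of -2.09 to -0.05. The median was -0.84 for alpha, -0.83 for beta, -0.78 for ATPase, -0.57 for PSMD and -0.93 for activator genes. With the length trend removed the 38 were still below 0, with a median of -0.48. The median was -0.59 with the median coding transcript length. With trends on both length and GC content removed, 2 members were above 0 and the median was -0.42. Without replicate 2 the median was -0.44 and 3 members were above 0. The ribosomal protein genes had -0.42 with 79 of 81 below 0, and with the length trend removed -0.06 with 34 above 0. All members share the same 5 libraries, so the count of signs is not a count of independent observations.

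PSMC2 had the largest interaction, -2.09 (SE 0.696, adjusted p = 0.268), with -1.91 without replicate 2 and -2.06 with the length trend removed. PSME2 had -1.49 (SE 0.702, adjusted p = 0.701) and PSMB4 -1.34 (SE 0.673, adjusted p = 0.771). The value of PSMB4 without replicate 2 was -0.86.

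In the additive model, which averages each omission over the other, 0 members passed the adjusted threshold for either omission, as did 0% of all genes. None reached an unadjusted p under 0.05. The member median was 0.23 for methionine omission, with 30 above 0, and -0.20 for tryptophan/niacin omission, with 27 below 0. Without the normal library the first was -0.22, and without the combined-omission library the second was 0.23. Each of these is then a single comparison between diets and no longer an average. Without methionine-free replicate 2 they were -0.01, with 18 members above 0, and 0.01, with 21 above 0.

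**Figure D5:**
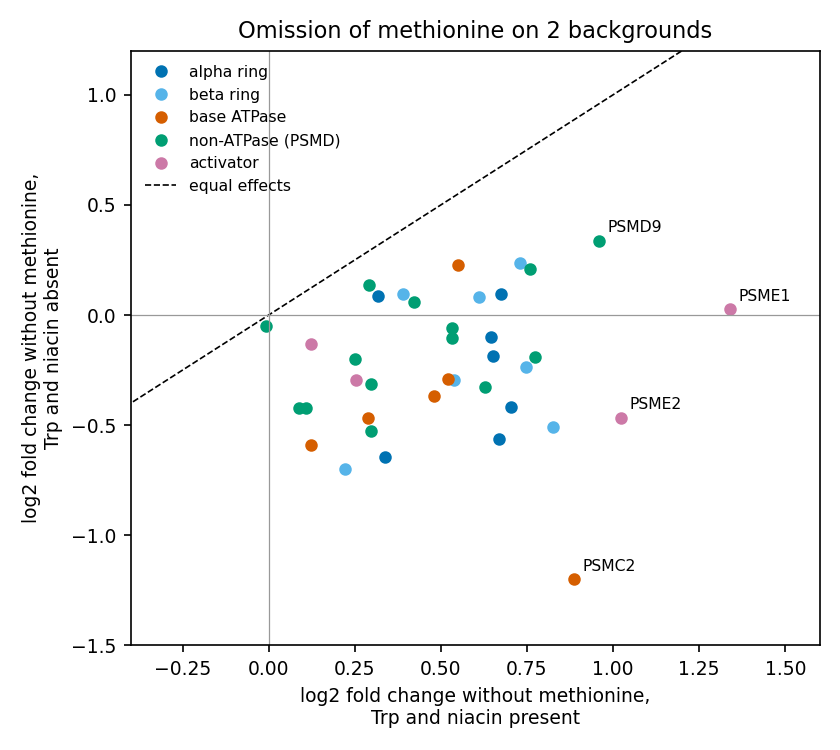
The fitted log2 fold change on methionine omission with tryptophan and niacin in the food (horizontal axis, methionine-free against normal) and without them (vertical axis, combined omission against tryptophan/niacin-free) for the 38 genes, coloured by role. All points lie below the diagonal of equal effects, and PSMC2 lies lowest. The comparisons on both axes cross the title styles.

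Other genes of the pathway were described beside the subunits, and none passed the adjusted threshold in any tested comparison. The immunoproteasome subunit PSMB8 stood at 23.6 CPM on normal food, 52 and 49.2 CPM in the methionine-free pair, 20.4 CPM without tryptophan and niacin and 40.8 CPM in the combined omission. The pair was highest and its replicates lay together, but these values rest on 13 to 31 counts. PSMB10 stood at 40.9 CPM on normal food, 50.2 and 65 CPM in the pair, 39.2 CPM and 27.2 CPM in the remaining libraries. PSMB9 had a mean of 4 counts and was not tested. Of the subunit ADRM1, the subunit SHFM1 and the bound enzymes UCHL5, USP14 and UBE3C, the median on methionine-free food against normal food was 0.40. The assembly factors and the inhibitor PSMF1, 8 genes, had 0.37, among them the core maturation factor POMP at 166 CPM on normal food and 177 and 252 CPM in the pair.

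Of the regulators, NFE2L1, the factor that raises proteasome gene transcription when proteasome activity is low, stood at 356 CPM on normal food, 305 and 216 CPM in the methionine-free pair, 311 CPM without tryptophan and niacin and 338 CPM in the combined omission. The pair was lowest, but its replicate 1 was next to the tryptophan/niacin-free library, and only replicate 2 stood clear. The median of NFE2L1, NFE2L2, DDI2 and NGLY1 on methionine-free food against normal food was -0.17, with NFE2L2 at -0.01. With the length trend removed the median was -0.13, with 1 of the 4 above 0.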

How the data were processed

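The 5 libraries were made with a TruSeq stranded mRNA kit per the labels' protocols, which name QIAzol for extraction where the design text names RNeasy. The authors deposited expected counts per gene (some with decimals). The submitters' processing notes name TopHat2 2.1.1, Bowtie2 2.2.8, SAMtools 0.1.18, featureCounts, Subread 2.0.0 and hg19. The annotation, the strand setting, the multi-mapping rule and a removal of mouse reads were not stated in any source used here. Subunits with pseudogene copies, and PSMA3, PSMD5 and PSMD6, which have antisense partners, are therefore uncertain.

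Counts were rounded. edgeR 4.0.16 in R 4.3.3 (TMM, filterByExpr on diet, quasi-likelihood F-test, Benjamini-Hochberg over 10005 genes, two-sided, threshold 0.05) was fitted to all 5 libraries with 1 mean per diet, or additively. Only the methionine-free pair gives residual degrees of freedom in the former (1), so lone libraries are assumed to vary like that pair. The prior degrees of freedom of that fit were infinite, so a gene's own replicate spread had no weight. Against normal food, PSMA2 had an SE of 0.426 with replicates 1.00 apart on the log2 scale. PSMA3 had 0.415 with replicates 0.03 apart. Lone libraries were compared by size (2-fold, prior count 2). limma-voom (limma 3.58.1), DESeq2 1.42.0, other scalings, no filter, length and GC corrections and left-out libraries were alternatives. Code was tested on simulated counts. Lengths came from GENCODE principal transcripts (98.7% of genes tested), and the trend was a lowess of span 0.4. For some genes the annotated length is uncertain. Promoters came from RefSeq (GRCh38.p14).

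Members and lists were chosen with earlier results of these data known. Named genes were, in each role group, the 2 smallest unadjusted p-values in each of the first 2 comparisons, the 2 highest levels, and members beyond the size rule or nearest the count limit. PSMC5, PSMB6, PSMB7, PSMD12 and the related genes shown were chosen after their values were seen. Intervals and replicates as few as 2 limit precision.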

Additional observations from a re-analysis of the deposited data

How the results depend on the processing

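No member passed the adjusted threshold in any tested comparison under any alternative, so what could move was sizes and signs. Leaving out 1 library gave member medians from 0.29 to 0.78 for methionine-free against normal food, -0.70 to -0.23 for the combined omission against methionine-free food, -0.56 to -0.02 for tryptophan/niacin-free against methionine-free food, and -0.86 to -0.44 for the interaction. In the additive model the medians ran from -0.22 to 0.53 for methionine omission and from -0.47 to 0.23 for tryptophan/niacin omission. The sign of the first turned without the normal library, and that of the second without the combined-omission library. With a lone diet left out, the model no longer averages, and each effect is a single comparison between diets. Thus -0.22 compares the combined omission with tryptophan/niacin-free food, and 0.23 compares tryptophan/niacin-free with normal food. The ends 0.53 and -0.47 repeat the first and second comparisons. Both signs also turned without methionine-free replicate 2 (-0.01 and 0.01), and the cause of that was not tested. The members beyond the size rule between the methionine-free replicates were 0 with total-count scaling, 2 with a prior count of 0.5 and 0 with the length correction, against 1. Single genes are given first without replicate 2 and then with the length and GC correction, which was chosen after seeing the data. Against normal food, PSMA6 went from 0.70 to 0.03 and 0.21. Between the combined omission and methionine-free food, PSMB1 went from -0.83 to -0.35 in each and PSMA2 from -0.87 to -0.27 and -0.38. PSMA3, at -0.92, stayed at -0.90 without replicate 2 and went to -0.34 with the correction. The length and GC correction gave an interaction median of -0.42 with 2 members above 0. Total-count scaling shifted the median of all genes by up to 0.10. No paired analysis was possible because the labels give no replicate numbers shared between diets and only methionine-free food has more than 1 library. Counts of 14 to 45 limit PSMD9.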

Other observations

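Among the 13 ubiquitin genes and shuttle factors, the median fold change of methionine-free against normal food was 0.21 on the log2 scale, and none passed the adjusted threshold in edgeR. UBB, which encodes ubiquitin, stood at 295 CPM on normal food, 369 and 495 CPM in the methionine-free pair, 306 CPM without tryptophan and niacin and 290.4 CPM in the combined omission. Replicate 2 of the pair was highest, and replicate 1 was next. UBB was chosen from the list after its values were seen.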
